A study of Sus scrofa with 2 samples.

Results

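The subunits of oxidative phosphorylation were examined by the origin of their genes, in single-nucleus RNA sequencing of pig pancreas. The members were chosen by symbol. Genes whose symbols begin with NDUFA, NDUFB, NDUFC, NDUFS or NDUFV were taken without the assembly factors NDUFAF, together with SDHA to SDHD, genes beginning with UQCR, ATP5, COX4I, COX5, COX6, COX7 or COX8, and the mitochondrial genes ND1 to ND6, ND4L, COX1 to COX3, ATP6, ATP8 and CYTB. This gave 78 of the 31908 genes in the matrices, of which 16498 carry a symbol. Of the 78 members, 13 are mitochondrially encoded and 65 nuclear encoded. The nuclear-encoded members belong to complex I (30 genes), complex II (3), complex III (5), complex IV (15, with NDUFA4 and NDUFA4L2 counted here) and complex V (12), and the mitochondrially encoded members to complex I (7), III (1), IV (3) and V (2). A further 4 subunits, NDUFB5, NDUFA7, UQCR11 and SDHA, are named only by the reference gene table and were left out of the members.

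Oxidative phosphorylation takes place in the inner mitochondrial membrane. Complexes I to IV pass electrons from NADH and succinate to oxygen and, except for complex II, pump protons, and complex V uses the proton gradient to make ATP. All subunits of complex II come from the nucleus, while the other complexes combine nuclear subunits with subunits from mitochondrial DNA, whose long transcripts are cut into single mRNAs inside the organelle. Mitochondrial transcripts do not originate in the nucleus, so in a preparation of nuclei they are RNA from outside it, whereas nuclear-encoded subunits are also counted as unspliced transcripts on their genes. Acinar cells make digestive enzymes and ductal cells secrete bicarbonate, both at a high cost in ATP.

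The series has 2 libraries, each from 1 piece of pancreas of 1 bama pig. The WT pig was wild-type, and the PIGinH11 pig carried GIPRdn, hIAPP and PNPLA3 I148M, knocked in at the H11 locus under promoters of the beta cell or the liver. Both were 18 months old and had been fed control diet until the age of 6 months and then HFHSD for 12 months, a diet in which 53% was the control diet, sucrose made up 37% and pork lard 10%. With 1 library in each group, the spread between animals was not measured and no test between the groups was possible, so genotype, animal, tissue piece and library cannot be told apart.

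After filtering, 11854 WT and 13126 PIGinH11 nuclei were retained, with medians of 3018.5 and 1167 unique molecular identifiers (UMIs, 1 for each captured molecule) and with 60 barcodes present in both libraries. Nuclei were grouped into 12 classes named from marker genes, and the members and the ribosomal protein genes were left out of the genes used for clustering. In the acinar-like class 16 and 15 of 17 markers were highest in their own class in the WT and PIGinH11 libraries, and in the ductal-like class 11 of 13 in each. Among the rarer classes these counts ran from 6 and 5 of 8 in the delta-like class to 14 of 14 in each library in the endothelial-like class. The same markers had named the classes. Levels are given as UMIs summed over the nuclei of a class, scaled to 1000000 UMIs of that class (CPM). A log2 ratio always sets PIGinH11 against WT, so that values below 0 are lower in PIGinH11. Every interval is exact, at the 95% level, and covers counting error only. Levels were not corrected for gene length, so that ratios and shares between genes are compared only across libraries and classes and say nothing of which gene is higher.

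The 2 origins differed in how far they were lower in the PIGinH11 library. In acinar-like nuclei (8793 WT and 9336 PIGinH11), the mitochondrially encoded members summed to 1558 CPM (1544 to 1572) in the WT library and to 555 CPM (543 to 566) in the PIGinH11 library, a log2 ratio of −1.49 (−1.52 to −1.46), or 2.81-fold lower. The nuclear-encoded members summed to 1521 CPM (1508 to 1535) and 1503 CPM (1484 to 1523), a log2 ratio of −0.02 (−0.04 to 0.01). In ductal-like nuclei (2153 and 2193), the mitochondrially encoded sum was 778 CPM (759 to 796) in the WT library and 304 CPM (286 to 324) in the PIGinH11 library, with a log2 ratio of −1.35 (−1.45 to −1.26). The nuclear-encoded sum was 2011 CPM (1982 to 2042) and 1838 CPM (1792 to 1885), with a log2 ratio of −0.13 (−0.17 to −0.09). Most genes with enough counts lay above 0 on this scale, with a median of 0.27 in acinar-like and 0.15 in ductal-like nuclei for genes that reached 20 UMIs in both libraries. Relative to this median, the mitochondrially encoded sum was at −1.76 in acinar-like and −1.51 in ductal-like nuclei, and the nuclear-encoded sum at −0.29 and −0.28.

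The mitochondrially encoded sum was lower in the PIGinH11 library in all 12 named classes, by at least 2-fold in 10 of them, and its interval lay below 0 in 11. The exception was the gamma-like class, with 7 WT and 36 PIGinH11 nuclei and a log2 ratio of −0.47 (−1.28 to 0.38). Its direction was not stable, and it lay above 0, at 0.17 to 1.09, under 5 alternatives of filtering or clustering. The largest difference was in macrophage-like nuclei (21 and 23), at −2.45 (−3.48 to −1.55), from 64 WT and 12 PIGinH11 UMIs. Between these, the log2 ratio was −0.94 in Schwann-like, −1.44 in endothelial-like, −1.60 in delta-like, −1.62 in stellate-like, −1.63 in alpha-like, −1.98 in beta-like, −2.09 in lymphocyte-like and −2.11 in mural-like nuclei. The nuclear-encoded sum ranged only from −0.34 (−0.66 to −0.03) in mural-like to 0.19 (−0.19 to 0.58) in macrophage-like nuclei. Its interval included 0 in 7 classes and lay below 0 in 5, and in no class did it lie above 0.

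**Figure D1:**
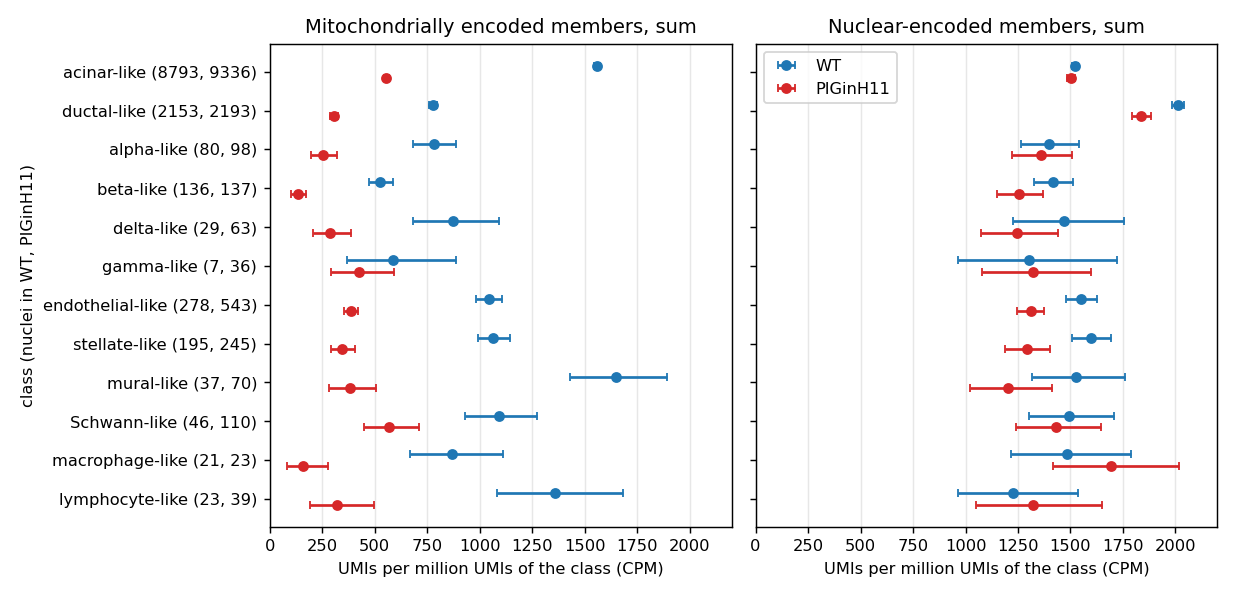
Summed level of the 13 mitochondrially encoded (left) and the 65 nuclear-encoded members (right) in each of 12 classes, in CPM of the class, for the WT (blue) and PIGinH11 (red) libraries, with exact 95% counting intervals as bars. On the left every red point lies below its blue point, with overlapping intervals in gamma-like nuclei, while on the right the points lie close together and the ductal-like class is highest in both libraries.

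The number of mitochondrial UMIs for each nuclear-encoded UMI followed from these sums. It was 1.02 (1.01 to 1.04) in WT acinar-like nuclei and 0.369 (0.36 to 0.378) in PIGinH11 acinar-like nuclei. In ductal-like nuclei it was 0.387 (0.376 to 0.398) and 0.166 (0.155 to 0.177). It was lower in the PIGinH11 library in all 12 classes. In the WT library it ran from 0.371 in beta-like to 1.11 in lymphocyte-like nuclei, and in the PIGinH11 library from 0.0938 in macrophage-like to 0.397 in Schwann-like nuclei.

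The origins also differed in how much their CPM varied between classes, and the next paragraph sets enzyme levels beside the mitochondrially encoded ones. In the WT library, the mitochondrially encoded sum ran from 527 CPM (472 to 586) in beta-like to 1648 CPM (1430.3 to 1889.9) in mural-like nuclei, a 3.13-fold range. In the PIGinH11 library it ran from 133 CPM (100.1 to 174) in beta-like to 568 CPM (450 to 708) in Schwann-like nuclei, a 4.27-fold range. The beta-like class was the lowest in each library, although in PIGinH11 its interval overlapped that of macrophage-like nuclei (82.1 to 278 CPM), and in WT that of gamma-like nuclei (366 to 885 CPM). The nuclear-encoded sum varied 1.64-fold between classes in the WT library and 1.53-fold in the PIGinH11 library. It was highest in ductal-like nuclei in both, and in WT the other 11 classes had values up to 1599 CPM (1508 to 1693), in stellate-like nuclei. In the PIGinH11 library the next value, 1695 CPM (1414 to 2016) in macrophage-like nuclei, was not separated from the ductal-like one by its interval.

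The summed RNA of ribosomal protein genes and of digestive enzymes was also lower in the PIGinH11 library. Ribosomal protein genes, whose spliced mRNAs lie mostly in the cytoplasm, had a log2 ratio of −0.88 in acinar-like and −0.82 in ductal-like nuclei, and were below 0 in all classes, down to −1.41 in delta-like nuclei. The mitochondrially encoded ratio was lowest in another class, macrophage-like nuclei (12 PIGinH11 UMIs), where ribosomal protein genes were at −1.07. The list called digestive enzymes here also names CLPS, SPINK1, SYCN and GP2, which are not enzymes. Its 17 genes summed to 109401 CPM in WT and 64153 CPM in PIGinH11 acinar-like nuclei, a log2 ratio of −0.77. Single genes went both ways there. Of 16 with 50 UMIs, 4 were at least 2-fold lower and 3 at least 2-fold higher, against 2.92% and 17.8% of all genes. The highest log2 ratio was 7.89. The 17 genes were at 33194 and 10464 CPM in ductal-like nuclei, a class that does not make them, with a log2 ratio of −1.67. In the 10 other classes, the enzymes ran from 22347 CPM in gamma-like to 52461 CPM in mural-like WT nuclei, and from 4238 CPM in macrophage-like to 25096 CPM in Schwann-like PIGinH11 nuclei. Their log2 ratio there ran from −3.04 in macrophage-like to −0.81 in Schwann-like nuclei. Beta-like, lymphocyte-like and mural-like nuclei came next to macrophage-like ones, at −2.47, −2.41 and −2.17, as they did for the mitochondrially encoded ratio. Gamma-like nuclei were at −1.71 for the enzymes and −0.47 for the mitochondrially encoded sum. The mitochondrially encoded sum was likewise highest in mural-like WT and Schwann-like PIGinH11 nuclei. Beta-like nuclei, lowest in that sum, had the second lowest enzyme levels of the 10 classes, at 30196 CPM in WT and 5436 CPM in PIGinH11. The part of this RNA from outside the nucleus in the differences of the mitochondrial genes, between classes or between libraries, was not tested.

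The mitochondrially encoded genes did not move by the same amount. They lie on the mitochondrial chromosome (MT) of Sscrofa11.1 in the RefSeq gene table, and COX1, the catalytic subunit of complex IV, spans MT:6511-8055 there. In acinar-like nuclei, COX1 had 14958 WT and 1951 PIGinH11 UMIs (474 and 124 CPM), and its log2 ratio of −1.94 (−2.01 to −1.87) was the lowest of the 12 mitochondrial members with at least 50 UMIs. COX3, another core subunit of complex IV at MT:9800-10583, had 11054 and 2743 UMIs (350 and 174 CPM) and a log2 ratio of only −1.01 (−1.07 to −0.95). COX1 and COX3 thus differed from each other by more than their counting intervals. In ductal-like nuclei COX1 was at 244 and 54.1 CPM, a log2 ratio of −2.17 (−2.40 to −1.95), and COX3 at 171 and 94.7 CPM, a log2 ratio of −0.86 (−1.04 to −0.68).

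In the order of the chromosome, the log2 ratios in acinar-like nuclei were −1.32 for ND1, −1.33 for ND2, −1.94 for COX1, −1.45 for COX2, −1.76 for ATP6, −1.01 for COX3, −0.62 for ND3, −1.34 for ND4L, −1.62 for ND4, −1.38 for ND5, −1.08 for ND6 and −1.53 for CYTB. ND6, which is transcribed from the other strand than the rest, was within their range; whether the counting used strand is not given in the sources used here. ATP8 had 17 WT and 6 PIGinH11 UMIs, too few for a ratio. Genes that overlap share reads that the counting may have assigned to either or to neither, and in the table ATP8 overlaps ATP6 by 43 bases, ND5 overlaps ND6 by 17 and ND4L overlaps ND4 by 7. Copies of mitochondrial sequence in the nuclear genome may also take reads, which makes small values uncertain.

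The share of each gene in the mitochondrial UMIs shows the same difference without the sum. In WT acinar-like nuclei COX1 gave 30.4% and COX3 22.5% of the mitochondrial UMIs, and in PIGinH11 acinar-like nuclei COX1 gave 22.3% and COX3 31.4%. There were 1.35 COX1 UMIs for each COX3 UMI (1.32 to 1.39) in WT and 0.711 (0.671 to 0.754) in PIGinH11 acinar-like nuclei. In ductal-like nuclei these values were 1.42 (1.33 to 1.52) and 0.571 (0.473 to 0.688). COX1 per COX3 was lower in the PIGinH11 library in 10 of 12 classes, but the intervals were apart only in 3, the acinar-like, ductal-like and mural-like classes. In mural-like nuclei the ratio was 2.30 (1.48 to 3.66) in WT and 0.60 (0.23 to 1.46) in PIGinH11. COX1 itself was lower in the PIGinH11 library in 12 of 12 classes, with an interval below 0 in 11, and the same counts were found for COX3.

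**Figure D2:**
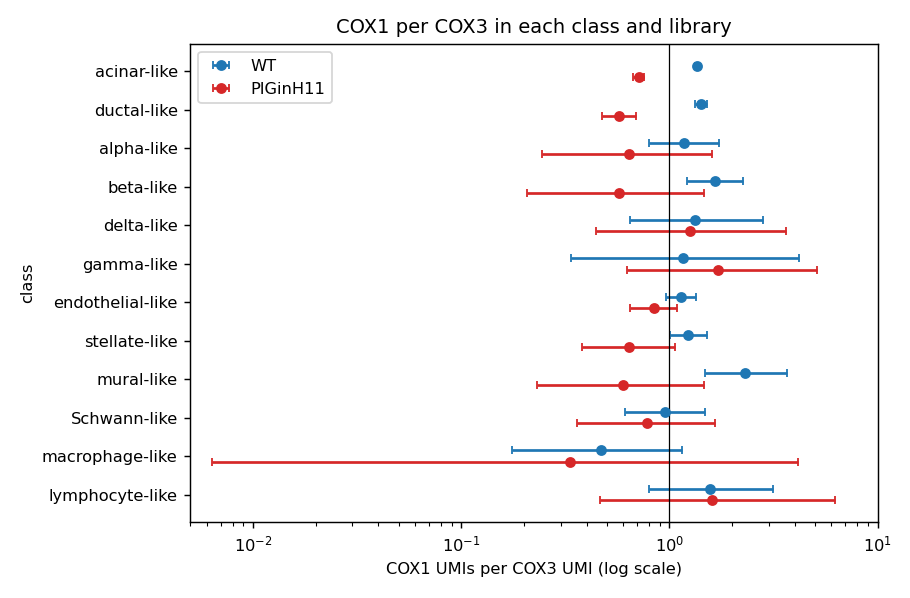
COX1 UMIs for each COX3 UMI on a log scale, for each of 12 classes in the WT (blue) and PIGinH11 (red) libraries, with exact 95% counting intervals as bars and a line at 1. The values of WT acinar-like and ductal-like nuclei (1.35 and 1.42) lie to the right of those of PIGinH11 nuclei (0.711 and 0.571), while most rare classes have overlapping intervals.

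The flat nuclear-encoded sum was made of members that lay on either side of 0. Of the 65 nuclear-encoded members, 63 had at least 50 UMIs over both libraries in acinar-like nuclei, and NDUFS8 (1 WT and 2 PIGinH11 UMIs) and COX4I2 (8 and 6) did not. The median log2 ratio of the 63 was −0.32, compared with 0.25 for all 16007 genes with 50 UMIs, and 50 of 63 (79.4%) lay below 0, compared with 32.8% of all genes. In the PIGinH11 library 3 of the 63 (COX8A, NDUFA4L2 and NDUFA11) were at least 2-fold lower and 1 (NDUFA10) at least 2-fold higher, where 2.92% of all genes were at least 2-fold lower and 17.8% at least 2-fold higher. The count of 3 moved to 1 without doublet removal or without 2 clusters led by digestive enzymes, and to 8 with median-of-ratios scaling or a limit of 1300 UMIs for each nucleus. At 1.5-fold, 11 of the 63 were lower, against 7.14% of all genes. By comparison, 11 of the 12 mitochondrial members with 50 UMIs were at least 2-fold lower, and ND3 was not. In ductal-like nuclei 60 members had 50 UMIs, with a median of −0.29 against 0.12 for all 11852 genes, and 47 of them (78.3%) lay below 0, against 40.5% of all genes. There 5 of the 60 (COX8A, ATP5PB, COX7A2, COX7C and NDUFS5) were at least 2-fold lower and 1 (NDUFA10) at least 2-fold higher, against 2.93% and 10.5% of all genes. The count of 5 moved to 9 with median-of-ratios scaling, to 3 at a minimum of 200 UMIs and to 0 under the limit of 1300 UMIs. At 1.5-fold, 16 of the 60 were lower, against 8.67% of all genes. Of the mitochondrial members in ductal-like nuclei, 7 of 11 were at least 2-fold lower and none was at least 2-fold higher. The share of all genes was not taken under the other scaling, filters, clusters or UMI minimum, so those counts have no background. Median-of-ratios scaling moves all genes down by the same amount. The genes are not independent replicates, and the comparison is of 2 libraries.

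The sum near 0 in acinar-like nuclei depended in part on NDUFS4, 1 of 13 members above 0 among the 63. NDUFS4 (ENSSSCG00000016893), an accessory subunit of the part of complex I that takes electrons from NADH, had 6057 WT and 4773 PIGinH11 UMIs in acinar-like nuclei (192 and 303 CPM), a log2 ratio of 0.66 (0.60 to 0.71). It gave 12.6% of the nuclear-encoded sum in WT and 20.1% in PIGinH11 acinar-like nuclei, and 11.3% and 20.9% in ductal-like nuclei, where its log2 ratio was 0.76 (0.65 to 0.86). Its level was higher in the PIGinH11 library in 11 of 12 classes, with an interval above 0 in 4, and it was at −0.22 (−1.19 to 0.73) in mural-like nuclei. Without NDUFS4, an alternative added after seeing the data, the nuclear-encoded sum was 1329 and 1201 CPM in acinar-like nuclei, a log2 ratio of −0.15 (−0.17 to −0.12), and 1784 and 1454 CPM in ductal-like nuclei, a log2 ratio of −0.30 (−0.34 to −0.25).

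Among the complexes, the nuclear-encoded subunits of complex I, which oxidizes NADH, summed to 672 CPM in WT and 736 CPM in PIGinH11 acinar-like nuclei, a log2 ratio of 0.13 (0.10 to 0.16) that lay above 0 but below the median of all genes. Without NDUFS4 this became −0.15 (−0.19 to −0.11). NDUFA10, an accessory subunit of complex I, was the only member at least 2-fold higher, with 330 and 395 UMIs (10.5 and 25.1 CPM) and a log2 ratio of 1.26 (1.04 to 1.47) in acinar-like nuclei. In ductal-like nuclei it was at 1.25 (0.78 to 1.71), from 85 and 78 UMIs. NDUFS6, a small subunit with a zinc site, was at 0.74 (0.52 to 0.95) and 0.70 (0.28 to 1.10) in these classes. NDUFA11, a membrane subunit, had 205 and 51 UMIs and a log2 ratio of −1.01 (−1.48 to −0.56) in acinar-like nuclei but −0.21 (−1.05 to 0.56) in ductal-like nuclei. NDUFA1, a small membrane subunit, was at −0.75 (−1.11 to −0.40) in acinar-like and 0.28 (−0.37 to 0.91) in ductal-like nuclei. NDUFS5, which faces the intermembrane space, was at −0.51 (−0.86 to −0.18) in acinar-like and −1.06 (−1.87 to −0.32) in ductal-like nuclei.

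Complex II, succinate dehydrogenase, links the chain to the citrate cycle. Its 3 members summed to a log2 ratio of 0.31 (0.25 to 0.38) in acinar-like and −0.07 (−0.19 to 0.06) in ductal-like nuclei. SDHC, a membrane anchor, had 1774 and 1379 UMIs in acinar-like nuclei (56.3 and 87.4 CPM), a log2 ratio of 0.64 (0.53 to 0.74), and 334 and 97 UMIs in ductal-like nuclei (38.8 and 29.2 CPM), where it was at −0.41 (−0.75 to −0.08). The 2 classes thus gave opposite signs for SDHC with intervals apart. SDHB, the iron-sulfur subunit, was at 0.18 (0.09 to 0.26) in acinar-like and 0.03 (−0.12 to 0.17) in ductal-like nuclei, and SDHD, the other anchor, at −0.22 (−0.44 to 0.00) and −0.20 (−0.57 to 0.16).

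The members of complexes III, IV and V were lower as sums. Complex III, which passes electrons to cytochrome c, had a log2 ratio of −0.14 (−0.22 to −0.06) in acinar-like and −0.37 (−0.51 to −0.23) in ductal-like nuclei, with UQCRC2, a core protein, at −0.08 (−0.21 to 0.04) and −0.28 (−0.49 to −0.08). Complex IV, cytochrome c oxidase, was at −0.34 (−0.39 to −0.29) and −0.57 (−0.68 to −0.47). Complex V, the ATP synthase, was at −0.30 (−0.36 to −0.24) and −0.45 (−0.57 to −0.33).

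COX8A, a small membrane subunit of complex IV, was the lowest nuclear-encoded member with 50 UMIs in acinar-like and in ductal-like nuclei. It had 527 WT and 118 PIGinH11 UMIs in acinar-like nuclei (16.7 and 7.48 CPM), a log2 ratio of −1.16 (−1.46 to −0.87). In ductal-like nuclei it had 117 and 12 UMIs (13.6 and 3.61 CPM), a log2 ratio of −1.91 (−2.91 to −1.06). COX7C, another small subunit, was at −0.87 (−1.03 to −0.71) in acinar-like and −1.10 (−1.45 to −0.77) in ductal-like nuclei. COX7A2 was at −0.27 (−0.58 to 0.04) and −1.38 (−1.94 to −0.87), so that it moved past 2-fold only in ductal-like nuclei, with intervals apart. COX5A, which had the most UMIs of the nuclear-encoded complex IV members, was at −0.13 (−0.26 to 0.00) and −0.46 (−0.67 to −0.26). ATP5PB, part of the stalk that holds the ATP synthase still, had 708 and 195 UMIs in acinar-like nuclei, a log2 ratio of −0.86 (−1.10 to −0.63), and 399 and 49 UMIs in ductal-like nuclei, a log2 ratio of −1.65 (−2.11 to −1.22). ATP5F1A, the alpha subunit of its catalytic head, was at −0.18 (−0.31 to −0.05) and −0.17 (−0.44 to 0.10).

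**Figure D3:**
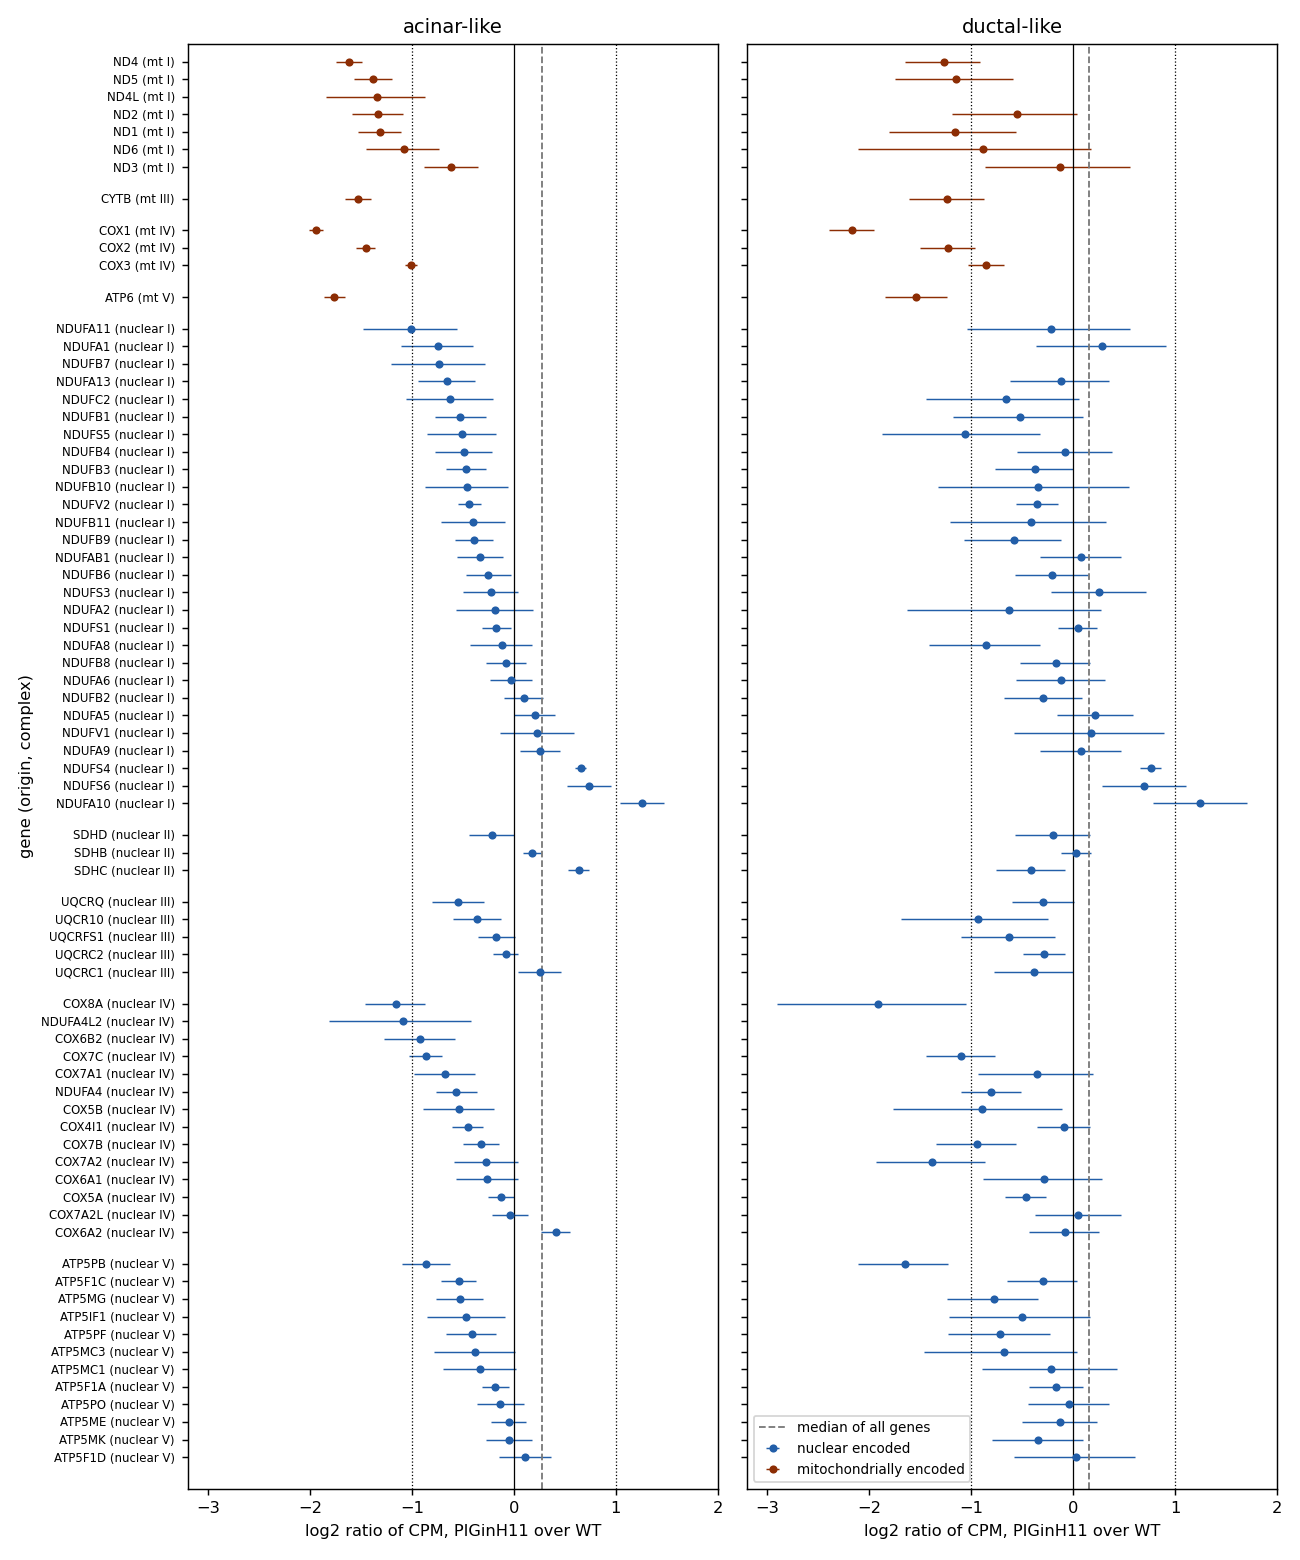
Log2 ratio of CPM, PIGinH11 over WT, for the members with at least 50 UMIs in the class (1 is not shown), in acinar-like (left) and ductal-like (right) nuclei, grouped by origin and complex, with exact 95% counting intervals as bars. Mitochondrially encoded members (brown) lie between −1.94 and −0.62 in acinar-like nuclei, most nuclear-encoded members (blue) lie below the median of all genes (dashed line), and dotted lines mark 2-fold.

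Gene length went along with the position of the nuclear-encoded members. For the whole libraries, the paper reports a smaller share of reads in exons and a larger share in introns for PIGinH11 than for WT. The part of this library difference in the ratios by length, and in those of the mitochondrial and ribosomal protein genes, was not tested. Lengths were taken as the span of the gene in RefSeq on Sscrofa11.1, where 52 of the 65 nuclear-encoded members were matched by symbol or an older symbol, and the split by length was made with these values known. In acinar-like nuclei the 31 matched members shorter than 10 kb had a median log2 ratio of −0.40, compared with 0.13 for the 1728 named genes of that length. The 20 members of 10 kb or more had a median of −0.15, compared with 0.24 for 8995 named genes. In ductal-like nuclei the medians were −0.35 for 29 short and −0.20 for 20 longer members, compared with 0.11 and 0.10 for named genes. In this split the median of the members was below that of named genes on each side. In finer classes this did not hold for all of the longest members. The 6 members of 20 to 50 kb had a median of 0.22 in acinar-like nuclei, compared with 0.18 for named genes. In ductal-like nuclei their median of 0.03 stayed just below the 0.04 of named genes. NDUFS4, alone above 100 kb, lay above the median of its class in acinar-like (0.36) and ductal-like nuclei (0.22).

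NDUFS4 is the longest matched member, at chr16:32874418-32985638 with 111.221 kb, and NDUFA10 (chr15:138999174-139031892) and SDHC (chr4:89135410-89169164) span 32.719 and 33.755 kb. NDUFS6 went against length, with a span of 6.093 kb and a log2 ratio above 0 in both classes. Across the 51 members of acinar-like nuclei with a length, Pearson's r between the log2 ratio and the log of the length was 0.45 and Spearman's rho 0.34, and without NDUFS4 they were 0.38 and 0.30. Across 10723 named genes they were 0.19 and 0.17. In ductal-like nuclei r was 0.35 across 49 members and 0.27 across 8904 named genes, and without NDUFS4 r across the members was also 0.27. Spearman's rho there was 0.29 across the members, 0.24 without NDUFS4 and 0.16 across named genes. These correlations are across genes of the same 2 libraries and are given as a description.

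**Figure D4:**
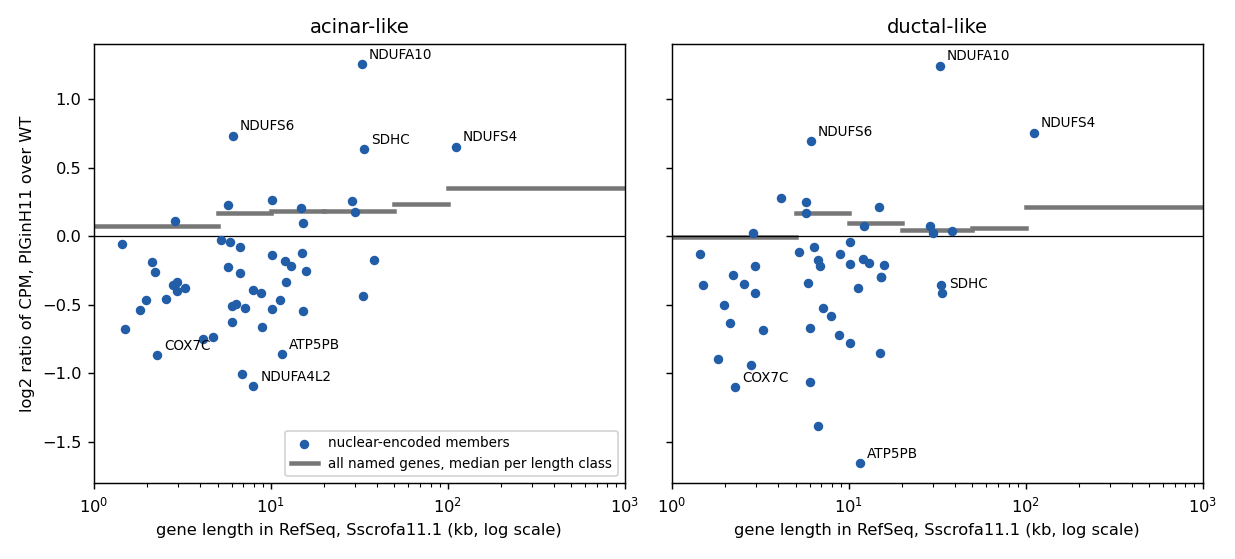
Log2 ratio of CPM, PIGinH11 over WT, against gene length in kb on a log scale for the nuclear-encoded members with at least 50 UMIs (points) in acinar-like (left) and ductal-like (right) nuclei, with the median of all named genes in each length class as grey lines. Most members lie below the grey line of their length class, while NDUFA10, NDUFS4 and NDUFS6 are among those above it in both panels, and SDHC is above it in acinar-like and below it in ductal-like nuclei.

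Within a library, nuclei with and without a mitochondrial UMI among 500 UMIs differed little in the CPM of the nuclear-encoded members. This holds for a total that includes the digestive enzymes. Each nucleus was thinned to 500 UMIs, so that depth was equal, and levels were taken over the UMIs that are not mitochondrial, those of the digestive enzymes included. In WT acinar-like nuclei, nuclear-encoded members were at 1542 CPM (1493 to 1592) in the 4824 nuclei with no mitochondrial UMI and at 1583 CPM (1528 to 1640) in the 3969 nuclei with at least 1. In PIGinH11 acinar-like nuclei the values were 1530 CPM (1491 to 1571) in 7342 nuclei and 1567 CPM (1490 to 1647) in 1994 nuclei. In ductal-like nuclei they were 1972 CPM and 2007 CPM in WT, and 1783 CPM and 1872 CPM in PIGinH11, with overlapping intervals. In the 417 WT acinar-like nuclei with 5 or more mitochondrial UMIs of 500, the level was 1703 CPM (1529 to 1891). Without NDUFS4, WT acinar-like nuclei were at 1339, 1335, 1434 and 1547 CPM with 0, 1, 2 to 4 and 5 or more mitochondrial UMIs. PIGinH11 acinar-like nuclei were at 1204, 1246, 1332 and 1167 CPM. Nuclei with 0 of 500 may still hold mitochondrial RNA, as 87.7% of WT acinar-like nuclei had a mitochondrial UMI before thinning.

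In WT acinar-like nuclei the cytoplasmic lists differed more on the same scale. From WT acinar-like nuclei with no mitochondrial UMI to those with 5 or more, ribosomal protein genes went from 5095 to 10212 CPM and digestive enzymes from 90331 to 183156 CPM. A larger enzyme share lowers the CPM of all other genes, the nuclear-encoded members among them. Levels without the enzymes were not taken here, so the small difference of the members is given only on this scale. In PIGinH11 acinar-like nuclei ribosomal protein genes went from 2881 to 4479 CPM, while the enzymes were at 58239 CPM with no mitochondrial UMI, 62445 CPM with 1, 67008.5 CPM with 2 to 4 and 59319.5 CPM in the 54 nuclei with 5 or more. Nuclei with more mitochondrial UMIs were also shallower before thinning, with medians of 3611.5 UMIs at 0 and 1828 UMIs at 5 or more in WT.

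**Figure D5:**
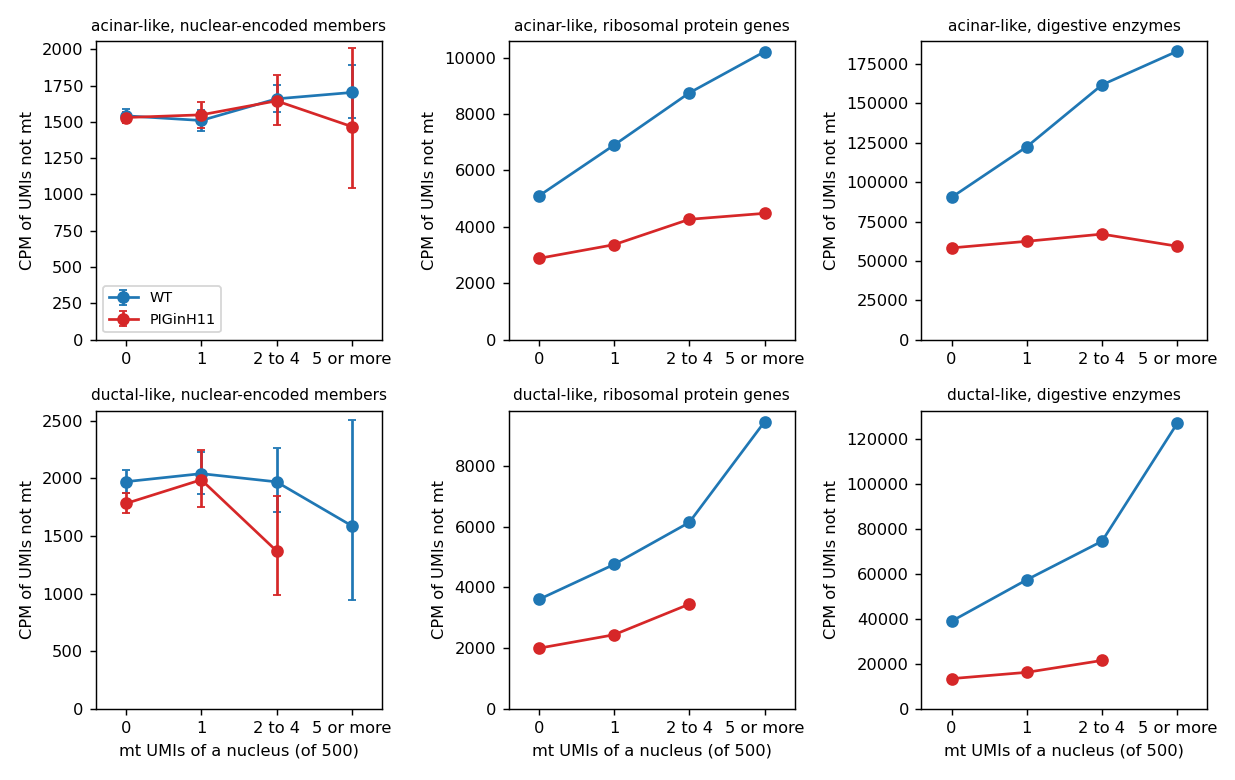
Level of the nuclear-encoded members, of ribosomal protein genes and of digestive enzymes, in CPM of UMIs that are not mitochondrial (mt), in acinar-like (top) and ductal-like (bottom) nuclei grouped by their mt UMIs after thinning to 500 UMIs, for WT (blue) and PIGinH11 (red), with exact 95% counting intervals for the members. In WT acinar-like nuclei ribosomal protein genes rose from 5095 to 10212 CPM from left to right, while nuclear-encoded members lay between 1510 and 1703 CPM.

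The difference between the libraries was also seen in single nuclei. After thinning, at least 1 mitochondrial UMI was found in 45.1% (44.1 to 46.2) of WT and 21.4% (20.5 to 22.2) of PIGinH11 acinar-like nuclei, and at least 1 nuclear-encoded member UMI in 53.4% (52.3 to 54.4) and 52.5% (51.5 to 53.5). Before thinning, with medians of 2876 and 1182.5 UMIs, these shares were 87.7% and 40.5% for the mitochondrially encoded and 93.2% and 80.1% for the nuclear-encoded members. Mitochondrial genes made up at least 1% of all UMIs in 325 WT acinar-like nuclei (3.70%, 3.31 to 4.11) and in 34 PIGinH11 acinar-like nuclei (0.364%, 0.252 to 0.509). These 325 nuclei carried 22.9% of the mitochondrial UMIs of the WT class, so that the WT sum did not rest on them alone.

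Acinar-like nuclei fell into 6 clusters, and in CPM of all UMIs of a cluster these repeat the contrast of the origins. In WT the mitochondrially encoded sum ran from 813 CPM in cluster 3 to 4389 CPM in cluster 8, while the nuclear-encoded sum ran from 1456 CPM in cluster 3 to 1613 CPM in cluster 7. In PIGinH11 the ranges were 369 CPM in cluster 3 to 1621 CPM in cluster 8, and 1452 CPM in cluster 3 to 1706 CPM in cluster 8. Clusters 7 and 8 were led by digestive enzymes, which took 608286 CPM in WT cluster 8 and 66274 CPM in WT cluster 3. Enzyme UMIs are part of the total, so the narrow range of the nuclear-encoded sum between clusters depends on this scale. Levels over the UMIs of other genes were not taken by cluster. The mitochondrially encoded sum was lower in PIGinH11 in each of the 6 clusters, with log2 ratios from −1.94 in cluster 1 to −0.96 in cluster 7. Without clusters 7 and 8 it was −1.39, and the nuclear-encoded sum stayed at −0.01. In that alternative, added after seeing the data, 1 nuclear-encoded member and not 3 was at least 2-fold lower, and the share of all genes was not taken.

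Other genes of mitochondrial energy supply, on lists written with earlier results of these data known, lay higher than the subunits. In acinar-like nuclei the 36 assembly factors with 50 UMIs had a median log2 ratio of 0.11, with 0 of 36 past 2-fold in either direction, where 2.92% of all genes were at least 2-fold lower and 17.8% at least 2-fold higher. The 65 mitochondrial ribosomal proteins had a median of 0.02, with 2 lower and 1 higher. The 25 genes that maintain and express the mitochondrial genome had a median of 0.12, with 0 lower and 1 higher, and the 12 citrate cycle genes one of 0.23, with 0 past 2-fold. Regulators of mitochondrial genes (11) were at a median of 0.26, with 1 at least 2-fold higher, ESRRG, and 15 glycolysis genes at 0.20, with 1 lower and 2 higher. Only the cytosolic ribosomal proteins, with a median of −0.89 and 17 of 50 lower, and the digestive enzymes, with a median of −0.43 and 4 of 16 lower and 3 higher, lay below the nuclear-encoded members.

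Of the genes that act on mitochondrial DNA, TFAM, which packages it and starts its transcription, was at 38.5 and 41.8 CPM in WT and PIGinH11 acinar-like nuclei, a log2 ratio of 0.12 (−0.02 to 0.25). POLRMT, the mitochondrial RNA polymerase, was at 24.5 and 41.1 CPM, a log2 ratio of 0.75 (0.59 to 0.90). LRPPRC, which stabilizes mitochondrial mRNAs, was at 69.1 and 68.8 CPM, a log2 ratio of −0.01 (−0.11 to 0.10). In ductal-like nuclei TFAM was at 0.34 (0.09 to 0.60), POLRMT at 0.24 (−0.22 to 0.68) and LRPPRC at −0.19 (−0.42 to 0.04). CYC1, the nuclear-encoded cytochrome of complex III that the choice by symbol leaves out, was at 0.06 (−0.14 to 0.25) in acinar-like and 0.35 (0.04 to 0.65) in ductal-like nuclei.

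In ductal-like nuclei these lists lay closer to the subunits, except for the genes that maintain and express the mitochondrial genome. Of all genes, 2.93% were at least 2-fold lower there and 10.5% at least 2-fold higher. The 29 assembly factors had a median of −0.12, with 0 lower and 1 higher, the 57 mitochondrial ribosomal proteins one of −0.02, with 4 lower and 1 higher, and the 12 citrate cycle genes one of −0.05, with 0 past 2-fold. The 10 regulators had a median of −0.18, with 0 lower and 2 higher, and the 12 glycolysis genes one of 0.01, with 0 past 2-fold. The 21 genes that maintain and express the mitochondrial genome had a median of 0.24, with 1 lower and 1 higher.

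Some members have forms that are used in particular tissues, and some of these stood out in a class. COX4I2, the form of COX4 known from lung and smooth muscle, was highest in mural-like nuclei, at 96.5 CPM (49.9 to 169) in WT and 47.8 CPM (17.5 to 104) in PIGinH11, from 12 and 6 UMIs in 37 and 70 nuclei. In the acinar-like class 8 and 6 UMIs gave 0.254 and 0.38 CPM, and it reached 8.21 and 4.40 CPM in stellate-like nuclei, where 6 and 2 UMIs were counted. COX4I1, the common form, was found in mural-like nuclei at 56.3 and 63.8 CPM, from 7 and 8 UMIs. NDUFA4L2, a relative of the complex IV subunit NDUFA4, was at 56.3 CPM (22.6 to 116) in WT mural-like nuclei from 7 UMIs, and at 0 CPM (0 to 29.4) in PIGinH11 mural-like nuclei. It was at 20.3 and 11.3 CPM in alpha-like nuclei, where 6 and 3 UMIs were counted. It was also found in beta-like nuclei, at 31.4 CPM (19.2 to 48.6) in WT and 9.87 CPM (2.69 to 25.3) in PIGinH11, from 20 and 4 UMIs, against 3.11 and 1.46 CPM in acinar-like nuclei.

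COX6B2, the form of COX6B known from testis, was found in acinar-like nuclei, with 332 WT and 88 PIGinH11 UMIs (10.5 and 5.58 CPM). In ductal-like nuclei it was at 1.28 and 0.301 CPM, and 11 and 1 UMIs were counted. COX6A2, the form of COX6A known from heart and skeletal muscle, was spread over the classes, at 32.5 and 43.2 CPM in acinar-like and 30.9 and 29.2 CPM in ductal-like nuclei. COX7A1, the other form of muscle, was at 12.4 and 7.74 CPM in acinar-like nuclei. These symbols were used as the matrices give them, and reads shared with close relatives cannot be told apart.

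Some common subunits were also highest in the same class in both libraries. ATP5F1A was highest in endothelial-like nuclei, at 122 CPM (102 to 145) in WT and 115 CPM (97.4 to 136) in PIGinH11, against 49.8 and 43.9 CPM in acinar-like and 53.3 and 47.5 CPM in ductal-like nuclei. UQCRQ, a small subunit of complex III, was highest in ductal-like nuclei, at 43.5 CPM (39.2 to 48.1) and 35.5 CPM (29.4 to 42.5), against 16.1 and 11.0 CPM in acinar-like nuclei. SDHB was at 159 and 162 CPM in ductal-like and 93.7 and 106 CPM in acinar-like nuclei. COX6A1 was highest in mural-like nuclei from only 4 and 2 UMIs, and NDUFB1 in macrophage-like nuclei from 3 and 2 UMIs. Over 11 classes with at least 20 nuclei in each library, 13 of 64 nuclear-encoded and 2 of 12 mitochondrially encoded members were highest in the same class in both libraries, and most of the other classes rest on a few UMIs. The share of all genes was not taken, so these counts have no background and do not show that the members mark classes more than other genes.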

How the data were processed

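Nuclei of 1 WT and 1 PIGinH11 pancreas were analysed. The authors deposited raw UMI counts for each gene and barcode. They had aligned the reads to Sscrofa11.1 in Cell Ranger, whose version is 3.1.0 in the labels and methods but 5.0.0 in the file headers, and EmptyDrops had chosen the barcodes. Doublets had not yet been taken out.

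A barcode was kept if it had 270 to 3700 genes, if its UMIs were below 13000 and if mitochondrial genes gave under 10% of them. The methods print an upper UMI limit of 1300, which was run as an alternative. The highest Scrublet scores (scanpy v1.11.5), 0.8% per 1000 barcodes, were removed. The matrices held 55784067 (WT) and 26228811 (PIGinH11) UMIs in 13619 and 14964 barcodes. Variable genes (2000, without the members and ribosomal protein genes), 30 principal components, Harmony in numpy and Louvain clustering (20 neighbours, resolution 1, igraph v0.11.9) gave 18 clusters, named when at least 3 markers had a log2 fold of 1 in 5% of nuclei. Endocrine-like and immune-like nuclei were clustered again. Of these, 27 WT and 169 PIGinH11 endocrine nuclei in a cluster that met 15 of 17 acinar markers, and 29 and 64 immune nuclei, of which 14 and 44 were in a cluster that met 16, were set aside without a class. A gene was called past 2-fold with at least 50 UMIs over both libraries. No statistical test was made.

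Intervals were Poisson for CPM, conditional binomial for ratios and Clopper–Pearson for shares. Only the interval for ratios was run on simulated counts, which held no spread between nuclei or animals.

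The members and lists were chosen with earlier results of these data known. Genes named were all mitochondrial members, the 6 lowest and 6 highest nuclear-encoded members in acinar-like and the 4 lowest and 4 highest in ductal-like nuclei (at least 100 UMIs), the member with the most UMIs of each complex, SDHB to SDHD, tissue-specific forms and the 6 largest class patterns. NDUFS5 and the genes of the other lists were picked after their values were seen, as were the split by length and 3 further alternatives. Alternatives changed the filters, clustering, scaling, denominator and weighting, the 2-fold limit (1.5-fold) and the UMI minimum (20 and 200). The values of 1 gene that this rule names are not reported here, although it stays in the sums and counts. Promoter motifs were not searched and the transgenes were not analysed here.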

Additional observations from a re-analysis of the deposited data

How the results depend on the processing

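The mitochondrially encoded sum stayed below 0 under all 25 alternatives to the acinar-like and the ductal-like values, and the nuclear-encoded sum under all 28. Both counts hold the value over all barcodes once for each class. In acinar-like nuclei the main interval of the nuclear-encoded sum included 0 (−0.04 to 0.01). Sizes moved and the cause was not tested. The log2 ratio of the mitochondrially encoded sum in acinar-like nuclei was −2.35 under the limit of 1300 UMIs, −1.76 with median-of-ratios scaling, −1.57 with enzyme, ribosomal and mitochondrial genes out of the denominator, −1.73 as a mean over nuclei, −1.74 after thinning and −1.39 without the enzyme-rich clusters. In ductal-like nuclei it was −1.25 without doublet removal, −2.34 under 1300 UMIs, −1.51 with median-of-ratios scaling, −1.48 as a mean over nuclei and −1.45 after thinning. The nuclear-encoded sum in acinar-like nuclei was −0.090 under 1300 UMIs, −0.29 with median-of-ratios scaling, −0.094 with the other denominator and −0.15 without NDUFS4, and in ductal-like nuclei −0.28 with median-of-ratios scaling and −0.30 without NDUFS4. Over all barcodes of each library, with no filter and no classes, the mitochondrially encoded sum was at −1.503 and the nuclear-encoded sum at −0.076, values of the whole libraries and of no class. The count of nuclear-encoded members at least 2-fold lower, 3 in acinar-like nuclei, was 1 without doublet removal, 8 under 1300 UMIs, 8 with median-of-ratios scaling, 11 at 1.5-fold and 1 without the enzyme-rich clusters. In ductal-like nuclei it was 5, and 0 under 1300 UMIs, 9 with median-of-ratios scaling, 16 at 1.5-fold and 3 at a minimum of 200 UMIs. Over all barcodes of the libraries the count was 2. Of these alternatives, the share of all genes was taken only at 1.5-fold. The limit of 1300 UMIs left 1887 WT and 7305 PIGinH11 nuclei. In gamma-like nuclei the mitochondrially encoded sum lay above 0 under 5 alternatives of filtering or clustering, from 0.17 to 1.09. In Schwann-like nuclei it stayed below 0 but reached −0.05. No paired analysis was possible because each group has 1 library, and for the same reason no replicate could be left out.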
